A study of Mus musculus with 6 samples.

Results

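Glycosyltransferases are enzymes of the endoplasmic reticulum and Golgi that add sugars from activated donors to proteins and lipids, and the set that a cell makes fixes the glycans it can build on mucins, adhesion receptors, secreted proteins and sphingolipids. In the mammary gland they also serve milk, since B4galt1 makes lactose once it is bound to alpha-lactalbumin, and they decorate the mucins of the luminal surface. The genes described here are 62 of the 16701 rows of the deposited comparison. They were chosen by a pattern of gene symbols. The pattern was proposed with earlier results of these data known, so counts and shares of called members only describe the list. The members are fucosyltransferases (Fut), sialyltransferases (St3gal, St6gal, St6galnac, St8sia) and the B3gnt, B3galt, B3galnt, B4galt and B4galnt enzymes. They also include the starters of mucin-type glycans (Galnt), the branching enzymes of N-glycans (Mgat) and of other chains (Gcnt), and the ceramide glycosyltransferases Ugcg and Ugt8a. The same pattern matches 91 protein-coding symbols of the GENCODE M21 annotation, and the genes of these families beyond the 62 were not analysed here.

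The study sequenced polyadenylated RNA of luminal epithelial cells, which line the ducts and make milk, from mammary glands of Ocln knockout mice (Ocln-/-, 3 libraries) and of wild-type control mice (WT, 3 libraries), both at 7 weeks of age. Ocln encodes occludin, a membrane protein of tight junctions. The sources used here do not give the strain, the knockout allele, how the cells were isolated or how many mice stand behind the libraries of each genotype. The p-values therefore measure only the spread between libraries, which may be partly technical. The values are those of 1 DESeq2 comparison, knockout over control. No value per library was used here, so the level in each library, its depth and the overlap of the genotypes are unknown.

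Each gene has a mean level over the 6 libraries in normalized counts, a log2 fold change with its standard error (SE) and an adjusted p, and a gene is called here at an adjusted p under 0.05 over all listed genes. To show both genotypes, a knockout and a control level were computed from each mean level and fold change, with both groups weighing equally in the mean, and are named implied levels. They carry the error of the fold change. Ocln had an implied level of 1269 normalized counts in knockout libraries and 2826 in control libraries, and its log2 fold change was -1.15 ± 0.16 (SE), per the authors' deposited table. The luminal keratin genes Krt18 and Krt8 stood at mean levels of 84084 and 61719 normalized counts, per the authors' deposited table, so the labelled cell type has its defining markers.

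Of the 62 genes, 3 rose and 1 fell in knockout cells. Ugt8a, the enzyme that makes galactosylceramide, Fut2, which adds the fucose of the H antigen, and Mgat4a, a branching enzyme of N-glycans, were higher, and Fut9, which makes the Lewis x structure, was lower. These 4 are 6.45 percent of the members, against 1.08 percent of all listed genes called in either direction. For rises alone the shares were 4.84 percent of the members and 0.808 percent of all genes, and for falls 1.61 percent and 0.275 percent. The members did not move together: 29 had a positive and 33 a negative log2 fold change, 46.8 percent positive against 48.8 percent over all genes, and their median was -0.02 against -0.01 over all genes. The authors' own calls in their deposited table all have an unadjusted p under 0.05 and a log2 change of at least 1. They mark 8 members, 7 up and 1 down. That is 12.9 percent of the members, against 2.79 percent of all genes, 1.8 percent up and 0.988 percent down. These calls kept Ugt8a and Fut2, left out Fut9 and Mgat4a and took in St6gal1, St8sia4, St8sia6, B3galt5, B4galt5 and, as the one that was lower, B3gnt7. At an unadjusted p under 0.05 stood 13 members, 10 higher and 3 lower, which is 21 percent against 9.07 percent of all genes.

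**Figure D1:**
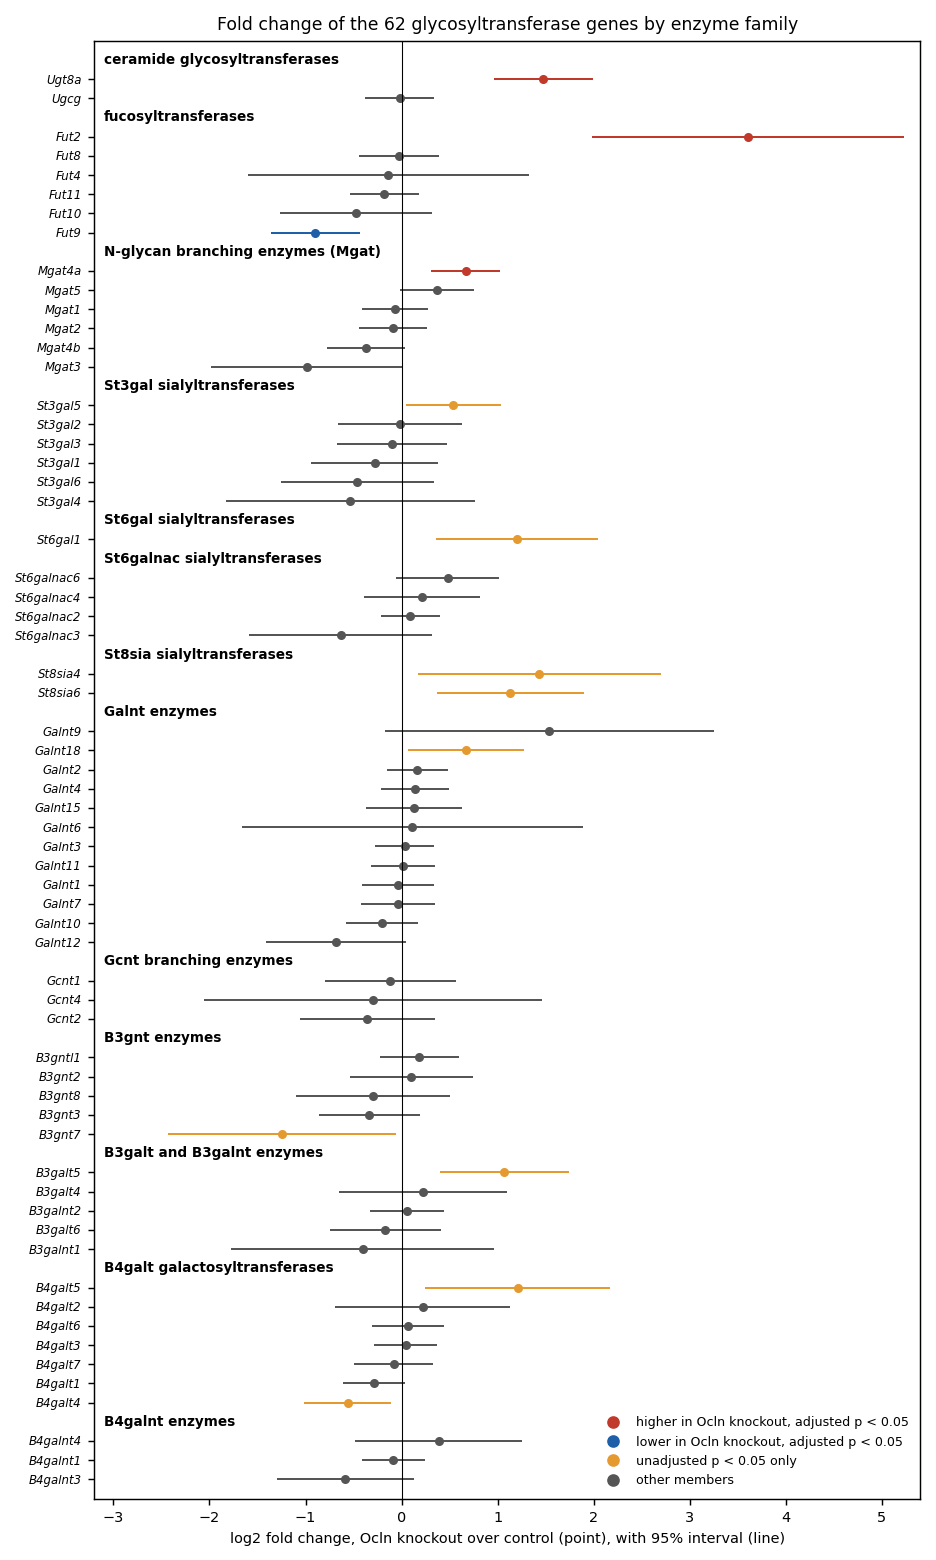
Each point is the log2 fold change of 1 of the 62 genes, Ocln knockout over control, and each line its 95 percent interval, grouped by enzyme family. Ugt8a, Fut2 and Mgat4a lie to the right of 0 and Fut9 to the left at an adjusted p under 0.05, and 9 further genes in orange passed only at an unadjusted p under 0.05.

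Ceramide receives its first sugar from Ugt8a, which adds galactose and is best known for the lipids of myelin, or from Ugcg, which adds glucose and opens the path to gangliosides and globosides. Ugt8a had an implied level of 968 normalized counts in knockout cells, against 348 in control cells. It rose 2.78-fold (log2 fold change 1.48 ± 0.26 SE with a 95 percent interval of 0.97 to 1.98, DESeq2 adjusted p = 7.46e-06 per the authors' deposited table), and was the 22nd gene of the whole table by p-value. Ugcg stood at 1048 normalized counts in knockout and 1063 in control cells, a fold of 0.985 with an interval of 0.775 to 1.25 (log2 fold change -0.02 ± 0.18 SE per the authors' deposited table). The changes of Ugt8a and Ugcg have intervals that do not overlap, while the difference between them was not tested. On GRCm38, Ugt8a spans 125865271 to 125938619 of chromosome 3 (minus strand).

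The enzymes that extend glucosylceramide were described by their own values. B4galt5 and B4galt6 make lactosylceramide. B4galt5 had a low implied level of 46.2 normalized counts in knockout and 19.99 in control cells and did not pass (log2 fold change 1.21 ± 0.49 SE, adjusted p = 0.332 per the authors' deposited table), and B4galt6 stood at 0.07 ± 0.19 at a mean level of 308 normalized counts per the authors' deposited table. St3gal5, the GM3 synthase at the entry of the ganglioside path, had 436 normalized counts in knockout and 299.7 in control cells and did not pass (0.54 ± 0.25, adjusted p = 0.460 per the authors' deposited table). B4galnt1, which makes GM2 and GD2, was at a log2 fold change of -0.09 ± 0.16 and a mean level of 3436 normalized counts per the authors' deposited table. Its level per kb of exon, 995 normalized counts, was the highest of all 62 genes. Further along, B3galt4, which makes GM1, stood at 0.23 ± 0.44, St6galnac6 at 0.48 ± 0.27, St6galnac3 at -0.64 ± 0.48 and the globoside enzyme gene B3galnt1 at -0.41 ± 0.69 per the authors' deposited table, and none of these passed.

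**Figure D2:**
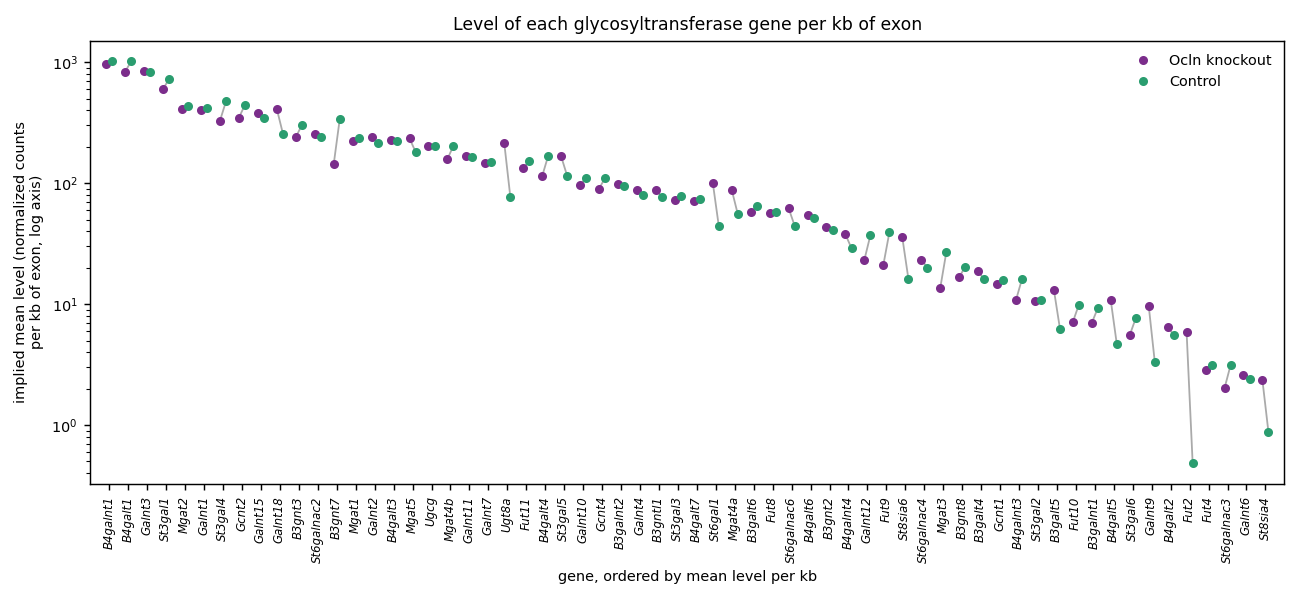
Implied mean level of each gene per kb of exon (GENCODE M21, log axis), Ocln knockout at left and control at right of each pair, ordered by mean level. The genes run from B4galnt1, with 995 normalized counts per kb, to St8sia4, with 1.61, and the widest gap between genotypes is that of Fut2.

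Among the 6 fucosyltransferases, 1 rose and 1 fell. Fut2, known in human as the secretor gene, adds the fucose of the H antigen in secretions. Its implied level was 31.8 normalized counts in knockout cells and only 2.62 in control cells. It rose 12.2-fold, but with a 95 percent interval of 3.98 to 37.1 (log2 fold change 3.60 ± 0.82 SE, DESeq2 adjusted p = 0.00278 per the authors' deposited table). With a mean level of 17.2 normalized counts per the authors' deposited table, Fut2 was near the lowest level listed, 8.35, and its implied control level lies below that bound. Of its 50-base stretches, 5.47 percent also occur in transcripts of Sec1, a neighbouring fucosyltransferase gene, so a small part of the reads could have been assigned to either gene.

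Fut9 moved the other way. It had 291 normalized counts in knockout cells, against 543 in control cells, or 0.537 times the control level with an interval of 0.392 to 0.735 (log2 fold change -0.90 ± 0.23 SE, DESeq2 adjusted p = 0.0145 per the authors' deposited table). The call of Fut9 was lost with Benjamini-Yekutieli adjustment (adjusted p = 0.1496), at an adjusted p under 0.01 and where a log2 change of at least 1 was also asked for. Fut4, which makes the same kind of linkage as Fut9, had 11.7 normalized counts in knockout and 12.9 in control cells, and with its SE of 0.74, per the authors' deposited table, changes past 2-fold in either direction lie within its interval. Fut8, which adds the core fucose of N-glycans, stood at -0.03 ± 0.21, Fut11 at -0.18 ± 0.18 and Fut10 at -0.48 ± 0.40 per the authors' deposited table. The 5 members other than Fut2 all stood below 0, and of these Fut9 alone was called. Both genes are on minus strands of GRCm38, Fut2 at 45648591 to 45666394 of chromosome 7 and Fut9 at 25609332 to 25800244 of chromosome 4.

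The Mgat enzymes add N-acetylglucosamine to the mannose core of N-glycans and so set the number of antennae. Mgat4a, which starts an antenna on an arm of the core, had 1134 normalized counts in knockout and 714 in control cells. It rose 1.59-fold, with an interval of 1.25 to 2.02 (log2 fold change 0.67 ± 0.18 SE, DESeq2 adjusted p = 0.0211 per the authors' deposited table). Scaling all Wald scores down by the root of the inflation factor ended the call (adjusted p = 0.0668), and so did taking out the trend with transcript length (adjusted p = 0.0804), Benjamini-Yekutieli adjustment (adjusted p = 0.217) and the same stricter thresholds as for Fut9. Mgat4b, its paralog with the same activity, had 429 normalized counts in knockout and 556 in control cells and did not pass (log2 fold change -0.37 ± 0.20 per the authors' deposited table). The intervals of Mgat4a and Mgat4b did not overlap, but the difference was not tested.

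Mgat1 and Mgat2, which open the path to hybrid and complex N-glycans, stood at -0.07 ± 0.17 and -0.09 ± 0.18 per the authors' deposited table, and their intervals ran from 0.754 to 1.20 and from 0.739 to 1.19 times the control level. Mgat5, whose branch carries long lactosamine chains and galectin ligands, had 2410.3 normalized counts in knockout and 1867 in control cells and did not pass (0.37 ± 0.19, unadjusted p = 0.0514 per the authors' deposited table). Mgat3, which adds the bisecting sugar, had 63.1 normalized counts in knockout and 125 in control cells and did not pass either (-0.98 ± 0.50, unadjusted p = 0.0512 per the authors' deposited table). The SE of Mgat3 was 1.63 times the median SE of the 200 genes nearest to it in level. On GRCm38, Mgat4a spans 37439340 to 37541016 of chromosome 1 (minus strand).

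The stretches of 250 bases before the annotated starts of Ugt8a and Mgat4a are shown because these genes rose and have starts in the RefSeq (GRCm38.p6) set used here. That set held no start for Fut2 or Fut9. The stretches read from 5′ to 3′ on the minus strand and end at the base before the start, and capitals mark the motifs named below. The Ugt8a stretch is chr3:125938653-125938902, and the Mgat4a stretches, of 2 annotated starts, are chr1:37541017-37541266 and chr1:37536405-37536654.
Ugt8a: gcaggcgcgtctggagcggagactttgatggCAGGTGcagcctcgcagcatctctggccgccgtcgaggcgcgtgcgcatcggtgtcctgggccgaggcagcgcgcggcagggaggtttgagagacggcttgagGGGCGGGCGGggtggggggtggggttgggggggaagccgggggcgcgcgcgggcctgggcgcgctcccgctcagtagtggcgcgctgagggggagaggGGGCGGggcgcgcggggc
Mgat4a, upstream start: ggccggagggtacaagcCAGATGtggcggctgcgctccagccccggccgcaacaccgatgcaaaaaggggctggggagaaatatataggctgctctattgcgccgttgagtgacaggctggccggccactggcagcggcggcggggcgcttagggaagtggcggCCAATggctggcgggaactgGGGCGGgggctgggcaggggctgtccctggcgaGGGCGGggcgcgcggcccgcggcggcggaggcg
Mgat4a, downstream start: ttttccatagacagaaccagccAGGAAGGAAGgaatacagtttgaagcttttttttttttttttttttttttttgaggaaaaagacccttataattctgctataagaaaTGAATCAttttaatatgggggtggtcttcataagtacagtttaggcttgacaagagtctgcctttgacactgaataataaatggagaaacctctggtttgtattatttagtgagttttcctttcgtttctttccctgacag

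The Ugt8a stretch has 76.8 percent G and C, the upstream Mgat4a stretch 72.4 percent and the downstream one 33.6 percent, against a median of 52.4 percent over all 32851 RefSeq upstream stretches and 60.4 percent over the 65 stretches of the 46 members that have one. On either strand, 9 short motifs were searched. They were the TATA box (TATAAA), the CCAAT box (its name gives its letters), the GC box (GGGCGG), the AP-1 site (TGANTCA), the STAT site (TTCNNNGAA), the core of ETS factors in general (CCGGAA) and of the Elf5 kind (AGGAAG), the E-box (CANNTG) and a steroid receptor site (AGAACA). The GC box occurs 3 times in the Ugt8a stretch, where a pair overlaps, and 2 times in the upstream Mgat4a stretch. It is held by 32.7 percent of all stretches and by 53.8 percent of the 65 stretches of members. The E-box occurs once in each of these 2 stretches, as in 66.2 percent of all, and CCAAT in the upstream Mgat4a stretch, as in 33.8 percent of all. The downstream Mgat4a stretch has the AP-1 letters, found in 6.75 percent of all stretches, and the Elf5-kind core in 2 overlapping copies, found in 29.5 percent. These matches describe the letters of the windows alone. The downstream Mgat4a window lies inside the span of the gene, and whether any of the windows acts as a promoter was not tested.

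Sialyltransferases cap glycans with sialic acid. None of the 13 members was called, and 4, all higher, had an unadjusted p under 0.05, where 5.23 percent of all genes were higher and 3.83 percent lower. St6gal1, which caps the lactosamine of N-glycans, had 496 normalized counts in knockout and 216 in control cells (log2 fold change 1.20 ± 0.43 SE, adjusted p = 0.195 per the authors' deposited table). Its SE was 2.05 times that of genes of like level. St8sia6, which extends sialic acid by a further one, had 273 normalized counts in knockout and 125 in control cells (1.13 ± 0.39, adjusted p = 0.157 per the authors' deposited table). St8sia4, a polysialic acid synthase, had 47.2 normalized counts in knockout and 17.5 in control cells (1.43 ± 0.64, adjusted p = 0.438 per the authors' deposited table). The remaining member with an unadjusted p under 0.05 was St3gal5, given above.

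None of the other capping enzymes passed, before or after adjustment. St3gal1, which caps the core of mucin-type glycans, had 4111 normalized counts in knockout and 4995 in control cells and did not pass (-0.28 ± 0.33 per the authors' deposited table). St3gal4, which caps lactosamine, was at -0.53 ± 0.66, St3gal6 at -0.46 ± 0.40, St3gal3 at -0.10 ± 0.29 and St3gal2 at -0.02 ± 0.32 per the authors' deposited table, so 5 of the 6 St3gal genes had negative values and none passed. St6galnac2, an enzyme of mucin-type glycans, was at 0.09 ± 0.15 with an interval of 0.869 to 1.31 times the control level, and St6galnac4 at 0.21 ± 0.30 per the authors' deposited table.

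**Figure D3:**
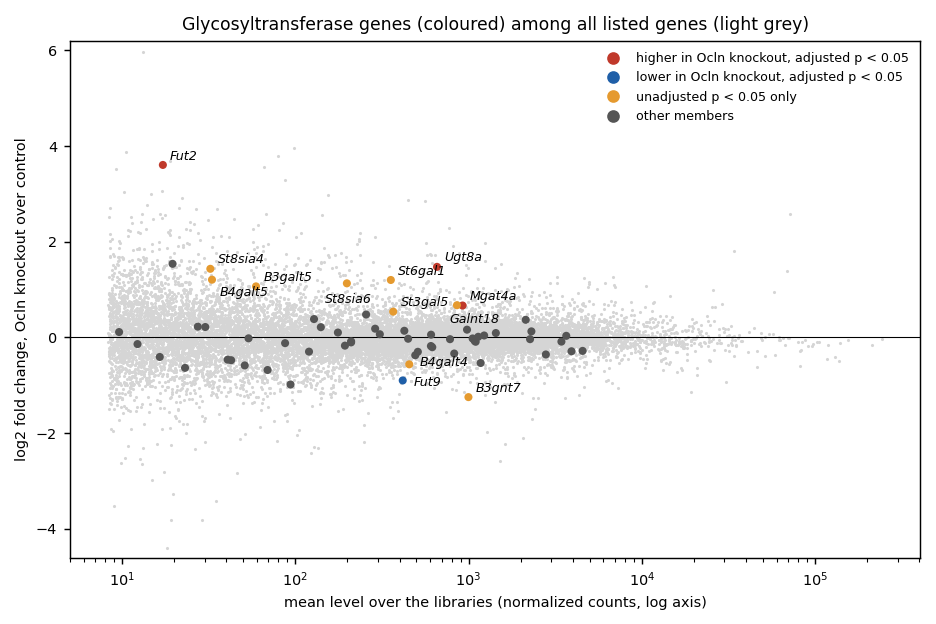
Log2 fold change, Ocln knockout over control, against mean level (log axis) for the 62 genes in colour and all 16701 listed genes in light grey; genes with an unadjusted p under 0.05 are named. The called genes Ugt8a and Mgat4a lie at mean levels of 658 and 924 normalized counts, and Fut2 at only 17.2. The uncalled Galnt18 lies close to Mgat4a.

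The Galnt enzymes, which start mucin-type glycans by adding N-acetylgalactosamine to serine or threonine, were the largest family with 12 members, and none was called. Their values ran from -0.68 ± 0.37 for Galnt12 to 1.54 ± 0.87 for Galnt9, a gene with a mean level of only 19.6 normalized counts per the authors' deposited table, with a median of 0.07. Galnt18 was the only one of the 12 at an unadjusted p under 0.05, with 1054 normalized counts in knockout and 661 in control cells (0.67 ± 0.30, adjusted p = 0.448 per the authors' deposited table). Galnt3, the member with the highest level per kb, 838 normalized counts, stood at 0.03 ± 0.15, Galnt1 at -0.04 ± 0.19 and Galnt15 at 0.13 ± 0.25 per the authors' deposited table. The interval of Galnt3 ran from 0.834 to 1.26 times the control level, so a change past 2-fold lies outside it. Of the others, Galnt11 (0.01 ± 0.17), Galnt7 (-0.04 ± 0.19), Galnt4 (0.14 ± 0.17), Galnt2 (0.16 ± 0.16) and Galnt10 (-0.20 ± 0.19) also lay near 0, while Galnt6 (0.11 ± 0.90) had a mean level of only 9.63 normalized counts per the authors' deposited table. Galnt2 shares most of its exons with Gm20388, a gene model annotated over it on the same strand, so that 93.68 percent of its 50-base stretches occur there too, and Galnt4 shares 7.38 percent with Poc1b, so the way overlapping genes were counted could change their levels.

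The Gcnt enzymes add branches to existing chains. All 3 had negative values and none was called: Gcnt2, which makes the I antigen, at -0.36 ± 0.35, Gcnt1, which makes the core 2 branch, at -0.12 ± 0.34, and Gcnt4 at -0.30 ± 0.89 per the authors' deposited table. Gcnt4 had 457 normalized counts in knockout and 563 in control cells. Its SE was 4.50 times the median of the 200 genes nearest in level, the highest ratio of the 62 genes. Gcnt4 is also the member nearest to Ocln, 3.55 Mb away on chromosome 13, and the next nearest, B4galt7, lies 44.9 Mb away.

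The B3gnt, B3galt and B3galnt enzymes act on lactosamine and on other chains, among them those of glycolipids and the proteoglycan linker. None of the 10 was called. B3gnt7, which works on keratan sulfate chains, had 592 normalized counts in knockout and 1405 in control cells, the lowest fold of all members at 0.421 times the control level. Its interval was 0.186 to 0.953 and it did not pass (log2 fold change -1.25 ± 0.60, adjusted p = 0.502 per the authors' deposited table), with an SE 3.35 times that of genes of like level. B3galt5, which makes type 1 chains, had 80.4 normalized counts in knockout and 38.4 in control cells (1.07 ± 0.34, adjusted p = 0.0952 per the authors' deposited table). It was the uncalled member with the smallest adjusted p. B3gnt3, an enzyme of mucin-type chains with a mean level of 827 normalized counts, was at -0.34 ± 0.26, B3gnt8 at -0.30 ± 0.40 and B3gntl1 at 0.18 ± 0.20 per the authors' deposited table. B3gnt2, the main enzyme of long lactosamine chains, was at 0.10 ± 0.32 per the authors' deposited table, and 79.85 percent of its 50-base stretches also occur in the gene model Gm28048 on the same strand. B3galnt2 stood at 0.06 ± 0.19 and B3galt6, an enzyme of the proteoglycan linker, at -0.17 ± 0.29 per the authors' deposited table.

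B4galt1, the catalytic part of lactose synthase, had 3537 normalized counts in knockout and 4319.9 in control cells and did not pass (log2 fold change -0.29 ± 0.16, unadjusted p = 0.0698 per the authors' deposited table). Its level per kb, 928 normalized counts, was the second of the 62 after B4galnt1. Lalba, which encodes alpha-lactalbumin, the partner of B4galt1, had 729 normalized counts in knockout and 1041 in control cells and did not pass (-0.52 ± 0.31 per the authors' deposited table). B4galt4 had 367 normalized counts in knockout and 542 in control cells (-0.56 ± 0.22, adjusted p = 0.321 per the authors' deposited table). B4galt3, at a mean level of 1231 normalized counts, stood at 0.04 ± 0.16, B4galt7, which builds the proteoglycan linker, at -0.08 ± 0.20, and B4galt2, with 32.72 percent of its stretches shared with Ccdc24, at 0.22 ± 0.46 per the authors' deposited table. The enzymes B4galnt3 and B4galnt4, which end chains with N-acetylgalactosamine, were at -0.58 ± 0.36 and 0.38 ± 0.44 per the authors' deposited table.

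Precision differed widely between members. For 31 of the 62 genes the 95 percent interval lay within 2-fold of the control level in both directions, and 27 uncalled genes had an interval that reached past 2-fold. The SE was over 1.5 times that of the 200 genes nearest in level for 11 members, against 6.3 percent of all genes. These 11 were Gcnt4, St3gal4 (3.71 times), B3gnt7, Gcnt2 (2.06 times), St6gal1, St3gal1 (1.93 times), Galnt18, St8sia6, Mgat3, B4galnt4 and Galnt9. The libraries behind these wide errors are unknown. Of the 4 called genes, Mgat4a (0.962 times) and Fut9 (1.13 times) had an SE close to that of genes of like level, Ugt8a 1.34 times and Fut2 1.41 times.

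**Figure D4:**
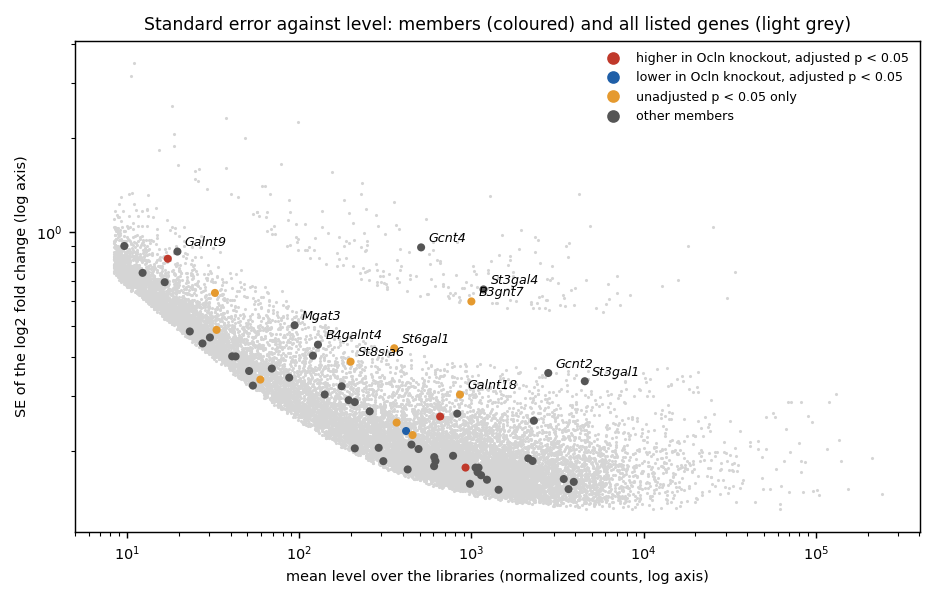
SE of the log2 fold change against mean level, both on log axes, for the 62 genes in colour and all listed genes in light grey; members with an SE over 1.5 times that of the 200 genes nearest in level are named. Gcnt4, St3gal4 and B3gnt7 lie in a sparse band well above the other genes of their level.

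Around these enzymes lie the genes that make their donor sugars, trim their substrates or carry their products. The 10 such lists hold 140 genes of known roles and were chosen with earlier results of these data known, so their shares are a description only. Of these genes, 4 rose, which is 2.86 percent against 0.808 percent of all genes, and none was called lower. Chst9, a sulfotransferase of terminal N-acetylgalactosamine, had 301 normalized counts in knockout and 94.0 in control cells and rose (log2 fold change 1.68 ± 0.28 SE, DESeq2 adjusted p = 1.88e-06 per the authors' deposited table). Cmas, which activates sialic acid for all sialyltransferases, had 2693 normalized counts in knockout and 1481 in control cells and rose (0.86 ± 0.22, adjusted p = 0.0134 per the authors' deposited table). The mucin genes Muc1 (1.15 ± 0.29, adjusted p = 0.00993) and Muc15 (1.09 ± 0.30, adjusted p = 0.0319), whose proteins carry such glycans on the cell surface and on milk fat globules, rose too per the authors' deposited table. All 6 listed mucin genes had positive values, with a median of 1.12, and a median SE 2.69 times that of genes of like level. Muc4, at 1.57 ± 0.48, did not pass (adjusted p = 0.0746 per the authors' deposited table).

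Of 9 listed glycan sulfotransferases, 6 had positive values and the median was 0.49. Chst8, close to Chst9 in activity, was at 2.45 ± 0.89 and Chst3 at 2.19 ± 0.86, both at low mean levels of 31.4 and 18.7 normalized counts, while Chst1 was at -0.43 ± 0.21 per the authors' deposited table, and none of these 3 passed. Of 11 genes of sialic acid supply and removal, 7 were positive, with a median of 0.04. Besides Cmas, Cmah, which converts the activated sugar to its glycolyl form, was at 1.19 ± 0.48 (adjusted p = 0.325), and Nans, a sialic acid synthase, at -0.16 ± 0.18 per the authors' deposited table. The 10 listed genes of fucose supply and removal had a median of 0.04 and values from -0.31 to 0.17, with no p under 0.05 before or after adjustment. The fucosidase genes Fuca1 and Fuca2 stood at -0.26 ± 0.19 and -0.31 ± 0.16 per the authors' deposited table.

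UDP-sugars are the donors of most enzymes named here. Of the 21 listed genes that make or move them, 20 stood below 0, and the median log2 fold change was -0.19 against -0.01 over all genes. None was called, and the gene with a positive value, Uap1, which makes UDP-N-acetylglucosamine, was the single one at an unadjusted p under 0.05 (0.55 ± 0.25, adjusted p = 0.460 per the authors' deposited table). Gfpt2 and Gfpt1, which open the hexosamine path, stood at -0.38 ± 0.34 and -0.09 ± 0.17 per the authors' deposited table. The 29 genes of ceramide and glycosphingolipid metabolism had a median of -0.13, with 11 positive and 18 negative and none called. Psap, the gene of the saposins, was at 0.04 ± 0.15 and Cers2, which makes very long ceramides, at 0.12 ± 0.19 per the authors' deposited table. At an unadjusted p under 0.05 stood Cers3 (1.02 ± 0.49), Sptlc3 (-0.64 ± 0.28), a subunit gene of serine palmitoyltransferase, and Gltp (-0.58 ± 0.27), a glycolipid transfer protein gene per the authors' deposited table. Galc, whose product removes the galactose that Ugt8a adds, was at 0.23 ± 0.18 per the authors' deposited table.

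Of 14 genes of N-glycan trimming, none was called and the median was -0.11. The mannosidase genes Man1a (-0.84 ± 0.31) and Man1c1 (-0.63 ± 0.29) were lower and Man2a1 (0.32 ± 0.15) higher at an unadjusted p under 0.05 per the authors' deposited table. Ganab, a glucosidase gene (0.01 ± 0.15), and Man1a2 (-0.17 ± 0.16) did not pass per the authors' deposited table.

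**Figure D5:**
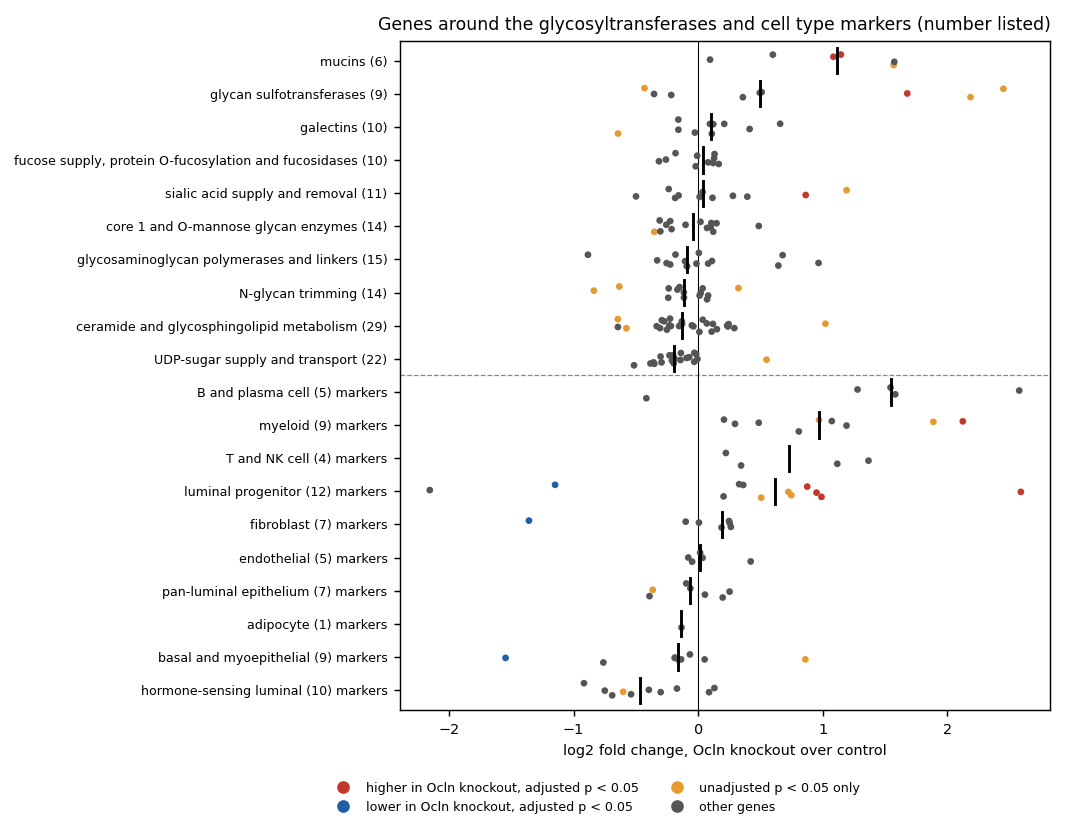
Log2 fold change, Ocln knockout over control, of the genes in 10 lists around the glycosyltransferases (above the dashed line) and 10 lists of cell type markers (below it), 1 point a gene and a black bar at each median, with the number of genes listed in brackets. Mucins sit to the right of 0, with a median of 1.12, and UDP-sugar genes just to the left, where the plotted list of 22, which also holds Lalba, has a median of -0.20.

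Some markers of luminal subtypes and of other cells were called too. In bulk RNA, more cells of a type and more RNA per cell cannot be told apart. Of the 12 luminal progenitor markers, 4 rose, namely Ltf (log2 fold change 2.59 ± 0.29), Trf (0.99 ± 0.26), Mfge8 (0.95 ± 0.26) and Wfdc18 (0.88 ± 0.25), and Csn3 fell (-1.15 ± 0.31) per the authors' deposited table. Over all genes, 0.808 percent were called higher and 0.275 percent lower. In this list, 10 markers had positive and 2 negative values. The summed implied levels of all 12 were 342507 normalized counts in knockout and 171485 in control cells, and 218877 in knockout and 150945 in control cells without Ltf. The 10 listed hormone-sensing markers summed to 149625 in knockout and 208014 in control cells, with none called and a median SE 2.60 times that of genes of like level. Of these, 2 had positive and 8 negative values. The 2 with the highest level, Ptn and Prlr, stood at -0.60 ± 0.29 and -0.40 ± 0.26 per the authors' deposited table. The 7 pan-luminal markers, Krt18 and Krt8 among them, summed to 304825 in knockout and 317965 in control cells, with none called.

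All 9 myeloid markers had positive values, with a median of 0.97, and 3 had an unadjusted p under 0.05. S100a8 was called (2.12 ± 0.53), while Cd74 (0.81 ± 0.66) and Lyz2 (0.97 ± 0.29) did not pass after adjustment per the authors' deposited table. The myeloid sums were 6999.8 in knockout and 3995 in control cells. Most of both sums came from Cd74, with 5059 in knockout and 2890 in control cells and an SE 3.94 times that of genes of like level. The 5 listed B and plasma cell markers summed to 503 in knockout and 164 in control cells, with none called and a median SE 3.71 times that of genes of like level. Of these, 4 had positive values, with Ighm at 1.58 ± 1.15 and Ighd at 2.58 ± 1.32, and Jchain was at -0.42 ± 1.83 per the authors' deposited table. The 4 listed T and NK cell markers, all with positive values, summed to 309.9 in knockout and 207 in control cells, with none called. Trbc2 stood at 0.22 ± 0.47 and Ccl5 at 1.12 ± 0.65 per the authors' deposited table. The 9 basal markers, 2 with positive and 7 with negative values, summed to 2105 in knockout and 2469 in control cells. Oxtr fell (-1.55 ± 0.38 per the authors' deposited table). Its implied levels, 199 in knockout and 581 in control cells, differed by more than the sums did. Krt17 was at 0.86 ± 0.42, with an unadjusted p under 0.05 only, and Acta2 at -0.16 ± 0.28 per the authors' deposited table. The part of these marker values in the changes of Ugt8a, Fut2, Mgat4a, Fut9, Chst9, Cmas, Muc1 and Muc15 was not tested.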

How the data were processed

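The authors' deposited table holds 1 DESeq2 comparison, knockout over control, of 3 libraries against 3. Per the submitters' processing notes, DESeq2 and the build mm10 were used; the aligner, read counter, strand handling, annotation and versions were not given in the sources used here. Columns given by the authors hold, per the file headers, the mean level (a signal in normalized counts), the log2 fold change and its SE (log2), the Wald statistic (a score), the p-value and adjusted p-value, and their own call (Up, Down or Stable). The direction comes from the name of the table. The deposited score equalled fold change over SE within 2.58e-07, whether the fold changes were shrunken is not given, and the deposited adjusted p matched a Benjamini-Hochberg adjustment over the 16701 genes within 0.512 percent. The lowest mean level listed was 8.35.

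No test per gene was added. With Python 3.11.15 and pandas 2.3.3, 95 percent intervals were taken from the SE on a normal scale, and levels per kb from the union of exons in GENCODE M21 (GRCm38), which places all 62 members and 16463 listed genes, 213 of them through RefSeq synonyms. Calls were repeated with other thresholds, filters and corrections, after a test on simulated data. The planned count model, fits leaving out a replicate and fits by pairing could not be run without values per library. Members and lists were chosen with earlier results of these data known, and the motifs, the shared 50-base stretches and the overlap of exons after the values were seen. Named are all called members, those at an unadjusted p under 0.05 and the extremes of each family; of each other list, the called genes, the 2 with the highest level and, for pathway lists, up to 4 at an unadjusted p under 0.05. Lalba, Galc, Krt17 and Jchain were named after their values were seen. The remaining members were named to account for all 62.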

Additional observations from a re-analysis of the deposited data

How the results depend on the processing

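The 4 called members became 2 at an adjusted p under 0.01, 2 where a change of at least 1 on the log2 scale was also asked for, 2 with Benjamini-Yekutieli adjustment and 8 by the authors' own calls, 7 higher and 1 lower, which rest on the unadjusted p and the size of the change. Ugt8a and Fut2 were called under each of these 4 settings. With genes at a mean level of at least 50 only, 3 were called, since Fut2 falls below that level. With scores scaled down by the root of the inflation factor, or less their median in 20 bins of transcript length, 3 were called, without Mgat4a. Adjusted p over these settings, the authors' calls aside, ran from 4.22e-06 to 9.82e-05 for Ugt8a, from 0.00278 to 0.0287 for Fut2, from 0.00283 to 0.1496 for Fut9 and from 0.0176 to 0.217 for Mgat4a. Over all genes the 181 calls became 107, 117, 86 and 466 in the first 4 settings and 119 after that scaling. Members with a positive value numbered 22 of 50 at a mean level of at least 50, 29 after centring on all genes and 28 after the length correction, and their median ran from -0.04 to -0.02. No paired analysis was possible because the table has no values per library, and for the same reason no replicate could be left out. Depth per library is unknown, and at low levels, as for Fut4 and Galnt6, changes of 2-fold lie within the intervals.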

Other observations

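Other genes of glycan building showed no called change. Of 15 listed polymerases and linkers of glycosaminoglycans, the long chains of proteoglycans, 6 were positive and the median was -0.09, with no DESeq2 p under 0.05 before or after adjustment. The heparan sulfate polymerase gene Ext2 stood at -0.01 ± 0.14 (SE) and Extl1 at 0.68 ± 0.73 per the authors' deposited table. Of 14 core 1 and O-mannose enzymes, 7 were positive and 7 negative, with a median of -0.04 and none called. Ogt and Oga, which add and remove N-acetylglucosamine on proteins of the nucleus and cytosol, stood at 0.15 ± 0.18 and 0.10 ± 0.15, and Pomgnt1, an O-mannose enzyme gene, at -0.35 ± 0.17 with an unadjusted p of 0.0407 per the authors' deposited table. The 10 listed galectins, which bind galactose-bearing glycans, had a median of 0.10, with none called. Lgals3 and Lgals3bp stood at 0.11 ± 0.24 and 0.09 ± 0.22, and Lgals12 at -0.64 ± 0.29 per the authors' deposited table.

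The 5 endothelial markers summed to implied levels of 1491 normalized counts in knockout and 1439 in control cells, and the 7 fibroblast markers to 1381 in knockout and 1578 in control cells. Among the fibroblast markers, Dcn fell (-1.36 ± 0.35, DESeq2 adjusted p = 0.0134 per the authors' deposited table). Its implied levels, 217 in knockout and 557 in control cells, differed by more than the sums did. In this list 5 markers had positive and 2 negative values, with a median of 0.19. Pecam1, Cdh5 and Col3a1 stood at 0.04, 0.02 and 0.25 on the log2 scale per the authors' deposited table. Of 5 adipocyte markers, Fabp4 is listed, at -0.14 ± 0.28 per the authors' deposited table.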
